A study of Arabidopsis thaliana with 6 samples.

Results

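The 80 genes described here differed between the lsm1a lsm1b double mutant and the Col-0 accession of Arabidopsis thaliana in 2 osmotic stresses. These were polyethylene glycol (PEG) and NaCl, and in cold the genes differed by at most 1.5-fold. They were chosen by their measured ratios: counts were turned into CPM (the count per 1e+06 counts of its library), 0.5 CPM was added, and the lsm1a lsm1b value was divided by the Col-0 value. A gene was taken when this ratio was at least 2 in both PEG and NaCl, or at most 0.5 in both, when it lay between 0.67 and 1.5 in cold, and when the higher library of each stress held at least 5 CPM. Of 20297 genes listed in any stress, 13241 reached 5 CPM in every stress, and 88 of these met the ratios. The choice left out 12 genes by name, 8 of which met the ratios (DFR, LDOX, TT19, UF3GT, AT4G14090, GORK, JAZ9 and RS2), so that 50 genes higher and 30 genes lower in lsm1a lsm1b remained. Because the ratios in all 3 stresses chose the genes, those ratios are given as a description and no test was made on them.

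Leaf RNA of plants 2 weeks old was sequenced, 1 library per genotype and stress and 6 in all. For cold, soil-grown Col-0 and lsm1a lsm1b plants were held at 4 °C for 24 h. For PEG, plants on plates of GM medium were given 55% PEG for 10 h, and for NaCl they were given 150 mM NaCl for 10 h, again on GM plates. Unstressed plants were not analysed here, so every value is a level under stress. Total counts ran from 10289392 to 22639128 per library. With 1 library per group a genotype ratio has no replicate check, and each interval given with one is the exact 95% (Clopper-Pearson) interval of the pair of counts, which covers counting error only. Nothing in the labels says how many plants a library pools. Growth medium and duration differed between cold and the plate stresses, so a difference between cold and the others cannot be told apart from these.

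LSM1A and LSM1B encode LSM1, either of which can take the LSM1 place in a ring of LSM proteins in the cytoplasm. The ring binds mRNAs whose poly(A) tail has been shortened and promotes removal of the cap, after which the message is degraded from its 5′ end. A level measured in lsm1a lsm1b therefore reflects both how much of a transcript is made and how fast it is lost, and counts per gene do not separate them. PEG and NaCl both lower the water potential around the plant, and NaCl also brings sodium and chloride ions.

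The labels were checked against the mutated genes. LSM1A held 206 counts in Col-0 and 10 in lsm1a lsm1b in cold, 246 and 26 under PEG, and 273 and 12 in NaCl. LSM1B held 152 and 39 counts in cold and 207 and 98 in PEG, but 195 in Col-0 and 439 in the mutant column in NaCl, a log2 ratio of 0.97 (interval 0.73 to 1.21). That column is called the library labelled lsm1a lsm1b, and every direction in NaCl rests on a library in which LSM1A was low and LSM1B was not. With NaCl left out of the choice, 160 genes were higher and 101 lower in PEG under the same limits, all 80 genes among them by construction. The 10 leaf mesophyll markers were detected in every library. Summed root markers (10 genes) were at 1540 CPM in Col-0 and 1902 CPM in lsm1a lsm1b in PEG, 2004 and 2722 CPM in NaCl and 139 and 377 CPM in cold, where 5 of the 10 were absent or at 0. Without the aquaporin gene PIP2;2 the root sums were 1488 and 1483 CPM in PEG, 1912 and 1485 CPM in NaCl and 105 and 153 CPM in cold. Summed seed markers (10 genes) were at 645 and 1153 CPM in PEG, 49.0 and 735 CPM in NaCl and 1.05 and 5.25 CPM in cold, where 9 of the 10 were absent or at 0. The seed markers did not move as one in PEG, where 4 (CRA1, CRU3, OLEO1 and OLEO2) were at least 2-fold above Col-0 and 6 at least 2-fold below it, with a median log2 ratio of -1.4. In NaCl all 7 at 5 CPM or more were above it, with a median of 3.49. The part of these markers in the results was not tested, and in bulk leaf RNA fewer cells of a type and less RNA per cell cannot be told apart.

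In PEG, 4.13% of the genes at 5 CPM or more were at least 2-fold higher in lsm1a lsm1b and 2.68% at least 2-fold lower. In NaCl, 5.07% were at least 2-fold higher in the library labelled lsm1a lsm1b and 4.28% lower. All conditions were met together, before genes were left out by name, by 0.385% of the genes in the higher and 0.279% in the lower direction. The 50 higher genes had a median log2 ratio of 0.16 in cold, 1.34 in PEG (range 1.01 to 4.06) and 1.48 in NaCl (range 1.01 to 4.70). For the 30 lower genes the medians were -0.09 in cold, -1.26 in PEG (range -3.24 to -1.02) and -1.51 in NaCl (range -3.97 to -1.02). Over the 13241 genes the medians were 0.06, 0.10 and -0.02. Of the 80 genes, 6 higher genes and 1 lower gene passed 4-fold in both stresses. For 20 higher and 15 lower genes the counting interval in PEG or NaCl reached the 2-fold limit. In cold the counting interval included equal levels for 22 of the 50 higher and 16 of the 30 lower genes. The remaining genes differed there beyond counting error, within the limits of the choice. Scaling by DESeq2 size factors, which moved the median of all genes in PEG by -0.11 on the log2 scale, gave 43 higher and 41 lower genes under the same limits, of which 37 and 27 were among the 50 and 30.

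**Figure D1:**
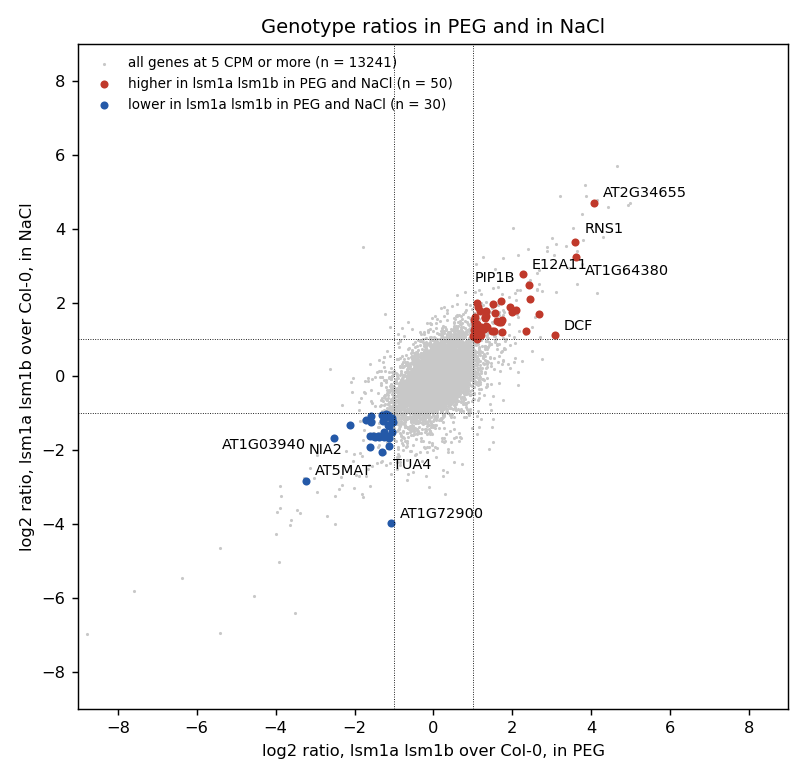
Log2 ratio of lsm1a lsm1b over Col-0 in PEG (x axis) and in NaCl (y axis) for the 13241 genes at 5 CPM or more in every stress (grey), with the 50 higher genes in red and the 30 lower genes in blue; dotted lines mark 2-fold. Among the 80 genes AT2G34655 lies farthest up at 4.06 and 4.70, AT5MAT lies at -3.24 and -2.83, and AT1G72900 stands off the diagonal at -1.08 and -3.97.

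Among the higher genes, 3 stood out by size: AT2G34655, RNS1 and AT1G64380. AT2G34655, annotated as an uncharacterized protein (chromosome 2, bases 14596631 to 14597540, TAIR10), held 71 counts in Col-0 and 63 in lsm1a lsm1b in cold, 4 and 200 under PEG, and 5 and 429 in NaCl. It was close to absent in Col-0 on both plate stresses and present in the other 4 libraries. Its log2 ratio was 4.06 (3.5 to 4.41) in PEG and 4.70 (4.16 to 5.08) in NaCl, and 5.83 and 6.26 with nothing added to CPM.

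RNS1 encodes a secreted ribonuclease of the RNase T2 family, known in Arabidopsis for its induction by phosphate starvation and wounding (chromosome 2, bases 873506 to 874811). Its level was 10.5 CPM in Col-0 and 7.58 CPM in lsm1a lsm1b in cold, 5.70 and 74.8 CPM under PEG, and 7.73 and 103 CPM in NaCl. All 3 Col-0 libraries and the lsm1a lsm1b cold library lay between 5.70 and 10.5 CPM, and the remaining libraries were far above them. The ratio was 12.1-fold in PEG and 12.6-fold in NaCl, and the intervals of the log2 ratios, 3.35 to 3.86 and 3.43 to 3.88, overlapped. Its relatives RNS2 and RNS3, looked up after these values were seen, had log2 ratios of 0.19 and 0.43 in PEG and 0.56 and 1.02 in NaCl.

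AT1G64380 encodes a transcription factor of the AP2/ERF DNA-binding superfamily. It was at 24.6 CPM in Col-0 and 33.9 CPM in lsm1a lsm1b in cold, 3.46 and 47.6 CPM under PEG, and 10.0 and 98.3 CPM in NaCl. Col-0 was thus lower on both plate stresses than in cold, while the libraries labelled lsm1a lsm1b were higher there than in cold. The ratios were 12.2-fold in PEG and 9.40-fold in NaCl.

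Several regulators of development and of the daily rhythm were among the higher genes. E12A11, the gene also called MOTHER OF FT AND TFL1, belongs to the phosphatidylethanolamine-binding protein family and is known for its part in seed germination. It held 47 and 59 counts in cold, 440 and 1897 under PEG, and 194 and 1543 in NaCl, Col-0 first. The ratio was 4.82-fold in PEG and 6.79-fold in NaCl. The seed markers went both ways in PEG, 4 above and 6 below the 2-fold limits, while in NaCl 7 of 7 lay above, and their part in this value was not tested. A protein-coding gene on the other strand, AT1G18090, overlapped E12A11 by 606 bases. AT1G18090 held 137 and 163 counts in cold, more than E12A11, 56 and 63 in PEG, and 77 and 109 in NaCl. No source used here gives the strand setting, so the cold counts of E12A11, which the choice used, are uncertain.

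AGL20, the floral integrator also known as SOC1, is a MADS-box transcription factor that promotes flowering. Its level was 125 CPM in Col-0 and 90.8 CPM in lsm1a lsm1b in cold, 13.0 and 37.7 CPM under PEG, and 6.99 and 28.5 CPM in NaCl. Both genotypes were highest in cold, and the libraries labelled lsm1a lsm1b were the higher ones only on the plate stresses. PRR7, a pseudo-response regulator that represses morning genes of the circadian clock, was at 99.7 and 85.0 CPM in cold, 13.9 and 31.4 CPM under PEG, and 13.8 and 35.5 CPM in NaCl. Across the 6 libraries the log2 levels of PRR7 and AGL20 had a Pearson correlation of 0.975, given as a description of 6 points that share the libraries and the way the genes were chosen. MYB29, a MYB transcription factor that activates genes of aliphatic glucosinolate synthesis, was at 31.6 and 42.5 CPM in cold, 1.71 and 5.10 CPM under PEG, and 17 and 45.6 CPM in NaCl. Its genotype ratio was almost the same in both plate stresses, 2.54-fold and 2.58-fold, although its level was far lower in PEG.

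**Figure D2:**
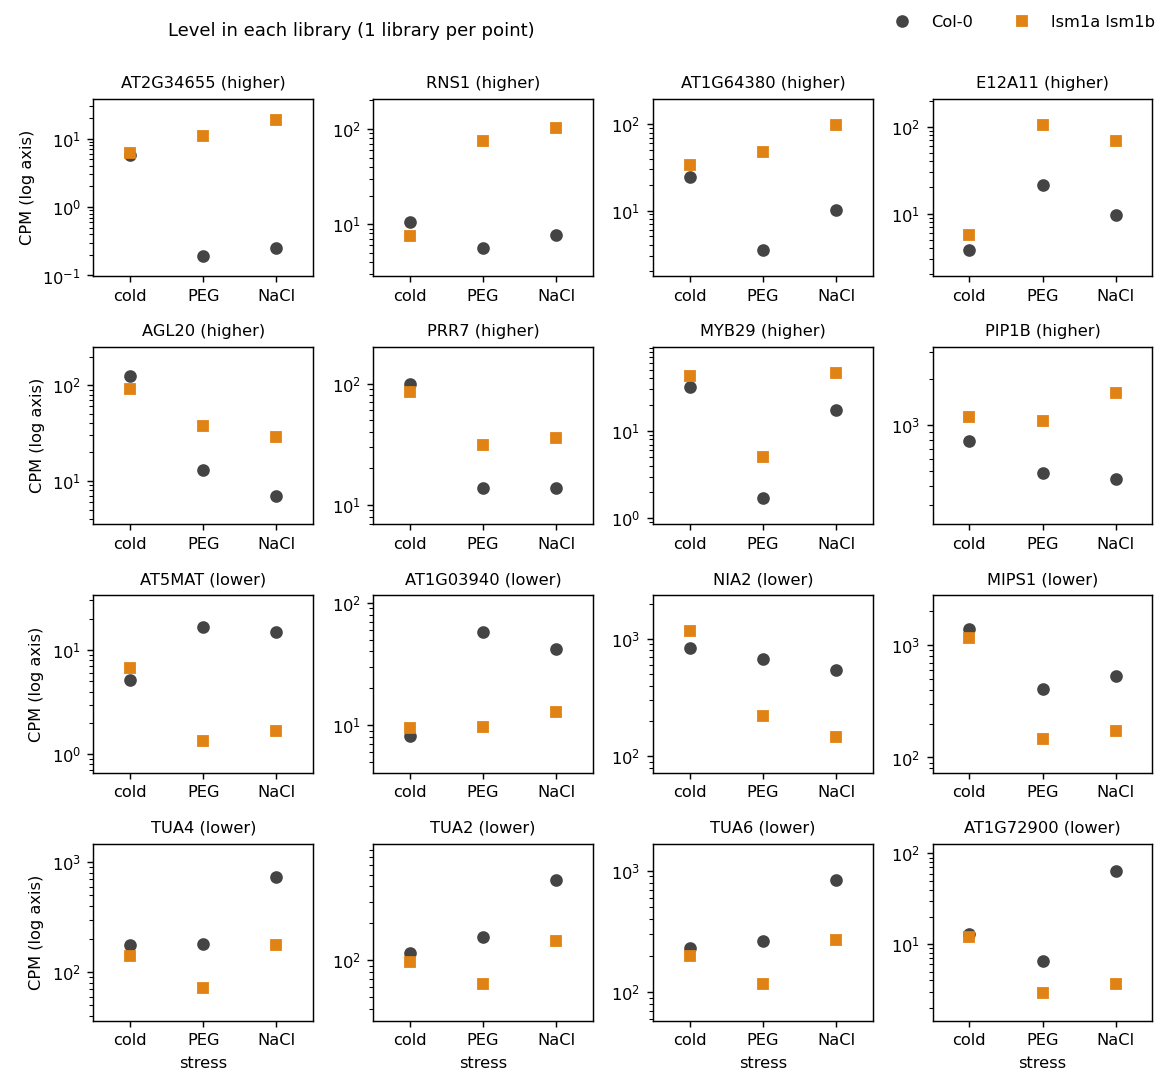
Level in CPM (log axis) of 16 of the 80 genes in each of the 6 libraries, 1 library per point, with Col-0 as grey circles and lsm1a lsm1b as orange squares. The pairs of points lie close together in cold and apart in PEG and NaCl, for example for RNS1 at 5.70 and 74.8 CPM in PEG.

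Some of the higher genes have products of the cell wall or the leaf surface and are described together, picked after their values were seen. They do not stand for wall genes as a whole: a list of 21 such genes held 0 of the 80, with 5 above and 1 below the 2-fold limits of 16 in PEG and 3 above and 5 below of 17 in NaCl, and the wall synthesis genes ATCSLA09 and GATL7 were among the lower genes. DCF encodes an acyltransferase that adds ferulate to cutin, the polyester of the cuticle. It held 800 and 618 counts in cold, 32 and 304 under PEG, and 569 and 1398 in NaCl. Its ratio was 8.43-fold in PEG but 2.17-fold in NaCl, and the intervals of the log2 ratios, 2.65 to 3.5 and 0.98 to 1.26, lay apart. BGAL10, a beta-galactosidase that trims xyloglucan, was at 167 and 148 CPM in cold, 26.0 and 88.1 CPM under PEG, and 52.0 and 150 CPM in NaCl. FXG1, an alpha-fucosidase of the same polymer, was 2.81-fold higher in PEG and 2.34-fold in NaCl. PRP2, a proline-rich wall protein, was 2.15-fold and 3.95-fold higher, and the glycine-rich proteins GRP3S and GRP9 were 2.02-fold and 2.03-fold higher in PEG and 2.14-fold and 2.91-fold higher in NaCl. The wall-related sks4, AT3G04010 (glycosyl hydrolase family 17) and AT1G74680 (exostosin family) had ratios between 2.08-fold and 2.97-fold in both stresses. The counts of AT3G04010 are uncertain, because AT3G04000 overlaps it by 479 bases on the other strand and the strand setting is not given.

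PIP1B encodes a plasma membrane aquaporin, a channel that passes water into and out of cells. It was at 781 CPM in Col-0 and 1135 CPM in lsm1a lsm1b in cold, 486 and 1063 CPM under PEG, and 444 and 1621 CPM in NaCl. Its log2 ratio was 1.13 in PEG and 1.87 in NaCl, with counting intervals of 1.09 to 1.16 and 1.83 to 1.90. The close relative PIP1A, looked up after these values were seen, was further from Col-0 in PEG and NaCl (log2 ratios 2.15 and 3.28) but missed the choice because its cold ratio was 1.51 on the log2 scale. PIP1C had 0.69 in cold, 1.4 in PEG and 0.84 in NaCl, and PIP1;5 had 0.26 in PEG and -1.04 in NaCl.

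Of the remaining higher genes, 2 encode small cysteine-rich proteins of the knottin type, a family that includes plant defensins. PDF2.1 was at 16.6 and 16.3 CPM in cold, 36.4 and 120 CPM under PEG, and 55.9 and 156 CPM in NaCl. AT2G43535 was at 8.77 and 6.32 CPM in cold, 14.1 and 55.2 CPM under PEG, and 14.7 and 55.2 CPM in NaCl, so that its plate-stress levels were nearly equal within each genotype. HVA22D, of a family induced by abscisic acid, was 2.08-fold and 3.05-fold higher, and GSTU24, a tau-class glutathione transferase, 2.08-fold and 2.52-fold. Enzymes and carriers of metabolism included TRE1 (trehalase, 2.15-fold and 2.40-fold), MCCA (a subunit of the leucine-degrading methylcrotonyl-CoA carboxylase, 2.29-fold and 2.51-fold) and FOLT1 (a folate transporter, 4.3-fold and 3.48-fold). CYTC6A, a cytochrome c of the thylakoid lumen, was 3.95-fold and 3.35-fold higher, and its 837-base overlap with AT5G45030 on the other strand makes the counts uncertain because no source used here gives the strand setting. AT3G21360, an oxygenase with 324 and 1593 counts in PEG and 288 and 1430 in NaCl, is uncertain for the same reason. It overlaps by 527 bases BGLU19, a beta-glucosidase gene with 176 and 4380 counts in PEG and 340 and 3641 in NaCl.

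**Figure D3:**
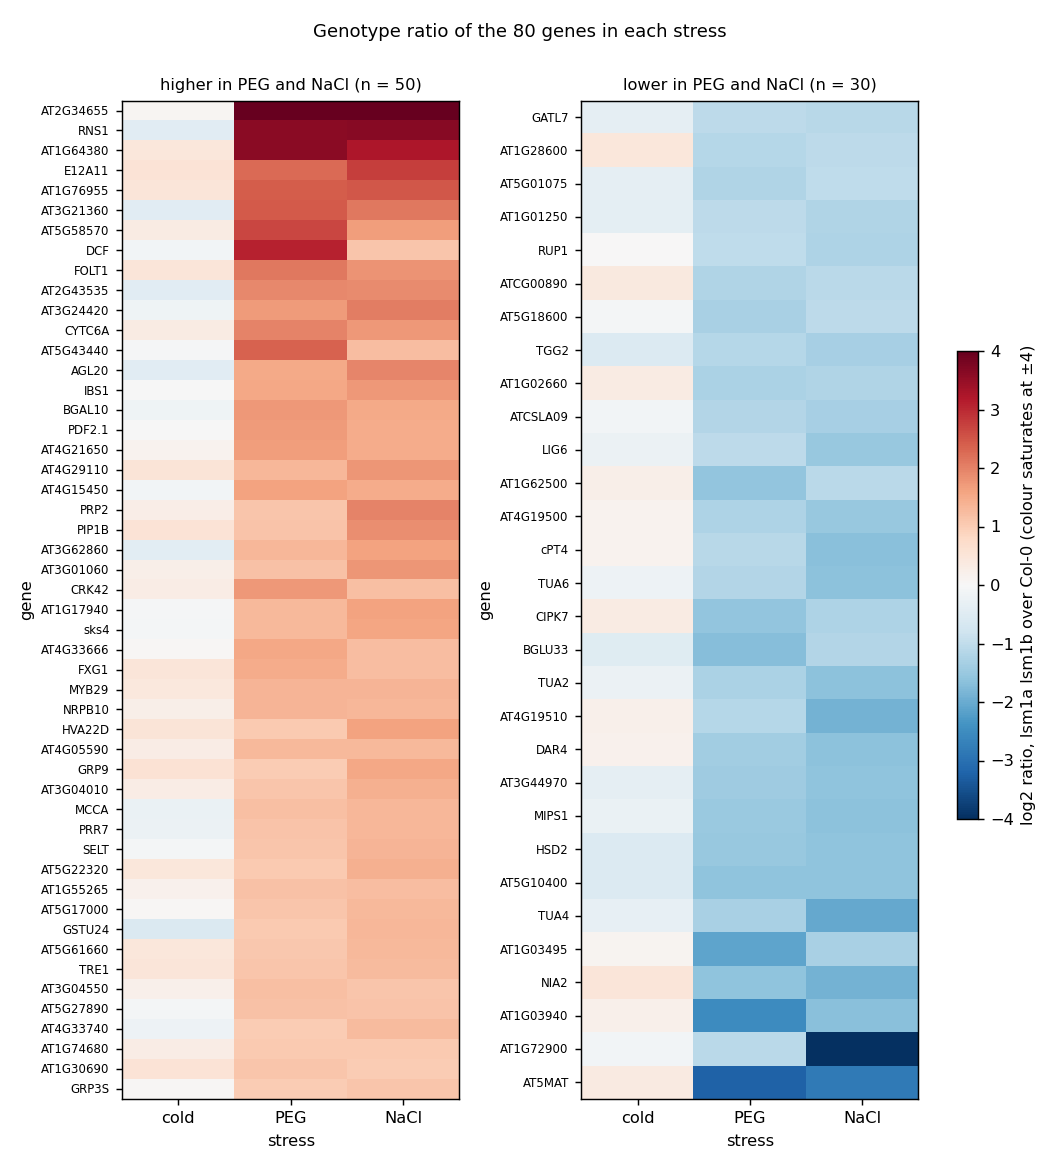
Log2 ratio of lsm1a lsm1b over Col-0 for each of the 80 genes (rows) in cold, PEG and NaCl (columns), the 50 higher genes on the left and the 30 lower genes on the right, ordered by the mean of the PEG and NaCl ratios; red is higher and blue lower in lsm1a lsm1b. The cold columns are pale by choice, with medians of 0.16 and -0.09, and AT2G34655 reaches the end of the colour scale.

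In PEG the largest ratios among the lower genes were those of AT5MAT and AT1G03940, acyltransferases that decorate anthocyanins, the purple flavonoid pigments; in NaCl AT1G72900, described further on, was farther below Col-0 than either. AT5MAT, which adds malonyl groups to anthocyanin glucosides (chromosome 3, bases 11398917 to 11400266), was at 5.15 CPM in Col-0 and 6.80 CPM in lsm1a lsm1b in cold, 16.8 and 1.33 CPM under PEG, and 15.0 and 1.68 CPM in NaCl. The Col-0 level was higher on the plate stresses than in cold and the level in the libraries labelled lsm1a lsm1b was lower there. It was 9.46-fold lower in PEG and 7.10-fold lower in NaCl, with intervals of the log2 ratio of -3.70 to -2.78 and -3.23 to -2.43. AT1G03940 and AT1G03495, which encode related coumaroyl transferases, were at 57.4 and 9.64 CPM and at 43.0 and 9.53 CPM in PEG. In NaCl they were at 41.9 and 12.8 CPM and at 35.3 and 13.9 CPM, and in cold all 4 values lay between 5.96 and 9.52 CPM. Their coding sequences are 96.4% identical where they align, so reads may be split between them and they are best read as one signal.

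Other genes of the pathway were counted in a list for flavonoids and anthocyanins, chosen with earlier results of these data known. The list held DFR, LDOX, TT19 and UF3GT, which met the same ratios and were left out by name, as was TT8. Its counts therefore repeat the choice in part. In PEG it held 16 genes at 5 CPM or more (AT5MAT was not counted in it). Of these, 9 were at least 2-fold lower, against 2.68% of all genes, and 0 higher. In NaCl, 8 of 18 were lower, against 4.28% of all genes, and 1 was higher. In cold 0 of 15 were either. The enzymes DFR and LDOX, which were left out of the 80 genes by name, had log2 ratios of -3.87 and -3.88 in PEG and -3.23 and -2.97 in NaCl. The regulators MYB75 and TT8 had -1.03 and -3.80 in PEG and -1.52 and -2.24 in NaCl. Among early enzymes of the pathway, TT4 (chalcone synthase) was at -1.75 in PEG and -0.43 in NaCl, TT5 (chalcone isomerase) at -0.60 and 0.11, and F3H at -0.90 and 0.47. The list median was -1.04 in PEG against 0.10 over all genes, and -0.38 in NaCl against -0.01.

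NIA2 encodes the main nitrate reductase of Arabidopsis leaves, which makes nitrite from nitrate as the entry to nitrogen assimilation. It was at 841 CPM in Col-0 and 1176 CPM in lsm1a lsm1b in cold, 673 and 219 CPM under PEG, and 545 and 145 CPM in NaCl. The 3 Col-0 levels differed by less than 1 log2 unit, while the level in the libraries labelled lsm1a lsm1b was highest of all 6 in cold and lowest in NaCl. The log2 ratio was 0.48 (0.44 to 0.52) in cold, -1.61 (-1.67 to -1.56) in PEG and -1.90 (-1.96 to -1.85) in NaCl. NIA1, the other nitrate reductase gene, had 2.78 in cold, -0.48 in PEG and 0.39 in NaCl, and NIR1, the nitrite reductase of the next step, had 2.13, -0.15 and -0.53. Of a list of nitrate and sulfate genes, 0 were at least 2-fold higher and 1 lower of 14 in PEG, 0 and 2 of 15 in NaCl, and 4 and 1 of 12 in cold.

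MIPS1, which makes inositol phosphate from glucose 6-phosphate in the committing step of inositol synthesis, was lower in both plate stresses. Its level was 1389 and 1149 CPM in cold, 407 and 147 CPM under PEG, and 535 and 172 CPM in NaCl. The related MIPS2 had log2 ratios of -1.42 in cold, -0.90 in PEG and 1.15 in NaCl. TGG2, a myrosinase that splits glucosinolates when tissue is damaged, was at 627 and 433 CPM in cold, 192 and 87.4 CPM under PEG, and 187 and 73.8 CPM in NaCl. The other leaf myrosinase gene, TGG1, was at -0.35 in PEG and -0.85 in NaCl on the log2 scale.

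Among the lower genes, 3 were alpha-tubulin genes, whose products pair with beta-tubulin to build microtubules. TUA4 was at 177 CPM in Col-0 and 140 CPM in lsm1a lsm1b in cold, 180 and 72.4 CPM under PEG, and 740 and 177 CPM in NaCl. TUA2 was at 115 and 97.1 CPM, 153 and 63.8 CPM, and 448 and 143 CPM in the same order. TUA6 was at 232 and 200 CPM, 264 and 117 CPM, and 838 and 271 CPM. In each of them the Col-0 NaCl library was the highest of the 6 and the lsm1a lsm1b PEG library the lowest. Their levels over the 6 libraries had Pearson correlations of 0.997 (TUA4 and TUA6), 0.995 (TUA2 and TUA6) and 0.987 (TUA4 and TUA2). Such likeness was not particular to tubulins: the cytochrome P450 gene AT3G44970 had 0.99 with TUA6 and 0.985 with TUA2. The coding sequences of the 3 tubulin genes are 95.1% to 96.6% identical, and reads may be split among them.

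Of the 15 alpha- and beta-tubulin genes, looked up after the values of these 3 were seen, all were at 5 CPM or more. In PEG and in NaCl, 3 were at least 2-fold lower and 0 higher, namely TUA2, TUA4 and TUA6. The log2 ratios of TUA3 and TUA5, the other alpha-tubulins of the vegetative plant, were -0.07 and -0.14 in PEG and -0.71 and -0.72 in NaCl. TUA1 was at 0.24 and 0.67. The median over the 15 genes was -0.15 in PEG, -0.62 in NaCl and -0.25 in cold. In cold 1 of them, TUB5 at -1.13, was at least 2-fold lower and 0 were higher.

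**Figure D4:**
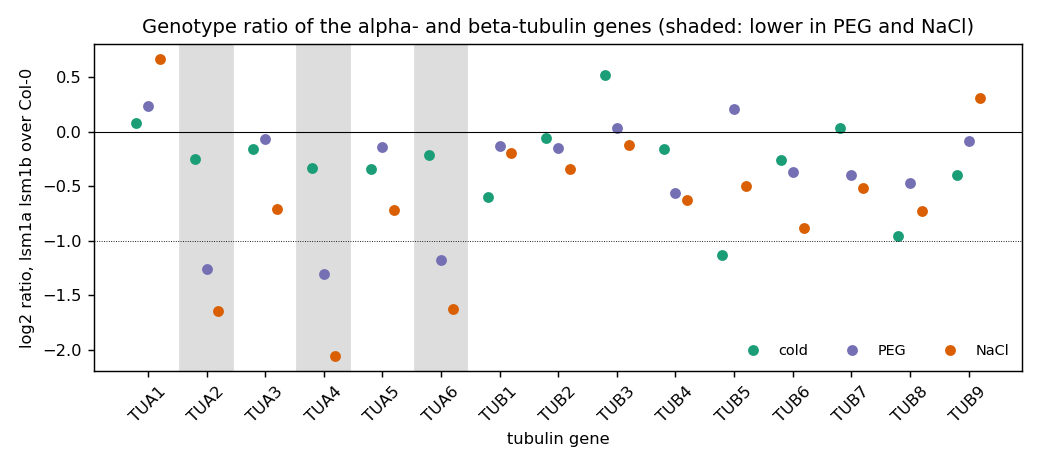
Log2 ratio of lsm1a lsm1b over Col-0 (y axis) for the 15 alpha- and beta-tubulin genes (x axis) in cold, PEG and NaCl, 1 ratio per point. The shaded TUA2, TUA4 and TUA6 lie below -1 (dotted line) in PEG and NaCl and between -0.34 and -0.21 in cold, while TUA3 and TUA5 lie above -1 in all 3 stresses.

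The bases upstream of these 3 genes are shown because the levels of the genes were alike over the libraries and the genes are near-identical in their coding parts. The 250 bases before the RefSeq gene start (TAIR10.1, 5′ to 3′ on the gene's strand) lie at chr1:18517336-18517585 (plus strand) for TUA2, chr1:1358548-1358797 (minus strand) for TUA4 and chr4:8550496-8550745 (minus strand) for TUA6. The TUA4 window overlaps another annotated gene, while those of TUA2 and TUA6 do not. Capitals mark any of the 6 searched motifs.
TUA2: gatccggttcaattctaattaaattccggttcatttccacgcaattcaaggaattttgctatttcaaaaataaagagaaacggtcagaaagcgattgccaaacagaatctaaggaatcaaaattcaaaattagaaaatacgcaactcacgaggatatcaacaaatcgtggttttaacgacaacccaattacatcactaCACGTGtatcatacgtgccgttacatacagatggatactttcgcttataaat
TUA4: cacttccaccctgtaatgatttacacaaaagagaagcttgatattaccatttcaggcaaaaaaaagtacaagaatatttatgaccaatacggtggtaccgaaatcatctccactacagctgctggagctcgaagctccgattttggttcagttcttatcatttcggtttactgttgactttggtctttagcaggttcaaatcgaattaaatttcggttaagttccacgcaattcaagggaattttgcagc
TUA6: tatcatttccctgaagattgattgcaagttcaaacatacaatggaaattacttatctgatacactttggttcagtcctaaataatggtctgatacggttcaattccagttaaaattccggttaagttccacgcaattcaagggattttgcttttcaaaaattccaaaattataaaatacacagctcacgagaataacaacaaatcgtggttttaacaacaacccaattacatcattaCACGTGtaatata
TUA4 and TUA6 share an unbroken run of 27 bases, cggttaagttccacgcaattcaaggga, which begins 37 bases before the start of TUA4 and 133 bases before that of TUA6. Within it, the 17 bases ttccacgcaattcaagg are also in TUA2, 216 bases before its start. TUA2 and TUA6 share 20 bases, caacaaatcgtggttttaac, and each holds a G-box (CACGTG), 52 and 13 bases before the start. These matches are a description of the letters in the windows and were not tested for function.

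The lower genes also held 4 genes for proteins with the TIR domain of plant immune receptors, picked after their values were seen; TIR genes as a whole were not counted. AT1G72900, a TIR-domain gene, held 162 and 125 counts in cold, 136 and 52 under PEG, and 1295 and 82 in NaCl. Its Col-0 NaCl library stood far above the other 5, and the gene was 2.11-fold lower in PEG and 15.7-fold lower in NaCl. AT4G19500 and AT4G19510, neighbouring TIR-NBS-LRR genes on the same strand with 3185 bases between them, were at 39.8 and 16.5 CPM and at 27.9 and 12.5 CPM in PEG. In NaCl they were at 29 and 9.81 CPM and at 28.3 and 7.33 CPM, and in cold lsm1a lsm1b was slightly above Col-0 for both (51.9 against 46.8 CPM and 31.5 against 27.2 CPM). DAR4, a TIR-NBS-LRR protein with a LIM domain, was at 27.4 and 31.2 CPM in cold, 30.9 and 11.5 CPM under PEG, and 34.0 and 10.6 CPM in NaCl. CSA1, its neighbour and known partner, had log2 ratios of 0.54, -0.47 and -1.25 and missed the limit in PEG.

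The other lower genes had smaller ratios. CIPK7, a protein kinase that works with calcium-binding CBL proteins, was at 259 and 328 CPM in cold, 380 and 126 CPM under PEG, and 267 and 114 CPM in NaCl. The histone gene AT5G10400 was 3.05-fold lower in both plate stresses, and the dehydrogenase HSD2 was 2.89-fold and 3.06-fold lower. LIG6, a DNA ligase, was 2.07-fold and 2.83-fold lower, and cPT4, a cis-prenyltransferase, 2.18-fold and 3.17-fold. Wall synthesis was represented by ATCSLA09, a mannan synthase (2.24-fold and 2.5-fold), and GATL7 (2.06-fold and 2.18-fold). BGLU33 was 3.29-fold lower in PEG and 2.25-fold in NaCl, and RUP1, which returns the UV-B photoreceptor UVR8 to its ground state, 2.03-fold and 2.35-fold. ATCG00890 was the chloroplast gene of the set, with 70 and 78 counts in cold, 1795 and 684 under PEG, and 1593 and 835 in NaCl. The check for near-identical copies covered nuclear genes only, so reads shared with a copy were not examined for ATCG00890. The lowest of the genes in this paragraph were shallow: RUP1 held 156 and 63 counts in PEG and 112 and 47 in NaCl. The interval of RUP1 in PEG, -1.41 to -0.63, crossed the 2-fold limit.

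The genes nearest to the limit are given once. Just inside it were AT1G30690, GRP3S and GRP9, whose smaller plate-stress ratios were 2.01, 2.02 and 2.03. Just outside were AT4G27570, CDF1 and AT2G42220, whose smaller ratios were 2.0, 2.0 and 1.99. On the lower side AT5G01075, RUP1 and AT1G01250 were inside, with the ratio nearer to the limit at 0.494, 0.493 and 0.487, and PLC8, ATCG00720 and AT5G41460 were outside at 0.501, 0.503 and 0.503.

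Within the chosen genes, the direction of the plate-stress levels against cold differed between the genotypes. Of the 50 higher genes, 28 were below their cold level in both plate stresses in Col-0, 14 of them at least 2-fold, and 14 were above it in both. In lsm1a lsm1b 7 of the 50 were below and 35 above, 21 of these at least 2-fold. For the 30 lower genes the counts ran the other way, with 6 below and 18 above in Col-0 and 19 below and 6 above in lsm1a lsm1b. The sense of this contrast between the genotypes was set by the choice of genes. A gene alike in cold and apart on the plates must differ between the genotypes in this comparison. The counts were not made over all genes, so a shift between plate and cold levels common to all genes cannot be told apart from them. They are thus no trait of the chosen genes, and they were not tested.

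The NaCl libraries were compared with the PEG libraries across genotypes, which the choice of genes did not rank by. edgeR's quasi-likelihood test was fitted to all 6 libraries with genotype as a block. The choice for alike genotype ratios in PEG and NaCl and little difference in cold sets part of the spread the test measures for these genes. Of 16943 genes tested, 5.33% were higher in NaCl and 3.20% lower at an adjusted p under 0.05. Of the 80 genes 4 were higher in NaCl, a share near the 5.33% of all genes, and 0 were lower. An unadjusted p under 0.05 was found for 20 of the 80 genes and for 5446 of the 16943. The 4 calls are thus given as a description of these genes and not as a trait of the 80. MYB29 rose by a log2 fold change of 3.20 (SE 0.36, adjusted p = 0.0262, edgeR), with 35 and 92 counts in PEG against 351 and 1033 in NaCl. The glycine-rich protein gene AT5G61660 rose by 1.95 (SE 0.29, adjusted p = 0.0327), from 71 and 141 counts to 258 and 735. AT3G44970, a cytochrome P450 gene, rose by 2.06 (SE 0.37, adjusted p = 0.0411), from 144 and 42 counts to 628 and 223. ATCSLA09 rose by 1.70 (SE 0.33, adjusted p = 0.0453), from 985 and 382 counts to 3411 and 1522. In these 4 genes the NaCl library was the higher one in both genotypes, and the first pair belongs to the higher genes and the second to the lower genes.

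Next in order were sks4 (log2 fold change 1.98, adjusted p = 0.0565), FXG1 (1.37, adjusted p = 0.0569), TUA4 (1.67, adjusted p = 0.0641) and TUA6 (1.42, adjusted p = 0.0661), which did not pass in edgeR. The 4 calls were lost without a genotype block (adjusted p from 0.0642 to 0.157) and when any of the 4 plate libraries was left out (adjusted p from 0.109 to 0.330), and every fold change stayed above 1 log2 unit. The fits without a plate library kept 1 residual degree of freedom and called 0 of all genes, so the loss there says nothing about these 4 in particular. With the 4 plate libraries alone, 24 of the 80 genes (30%) were higher in NaCl against 16.7% of all genes, and 9 (11.2%) were lower against 12%, a share near that of all genes. That fit takes the spread of a gene from the difference between its PEG and NaCl genotype ratios. The choice of genes used both ratios, so these shares are no result about the 80 genes.

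**Figure D5:**
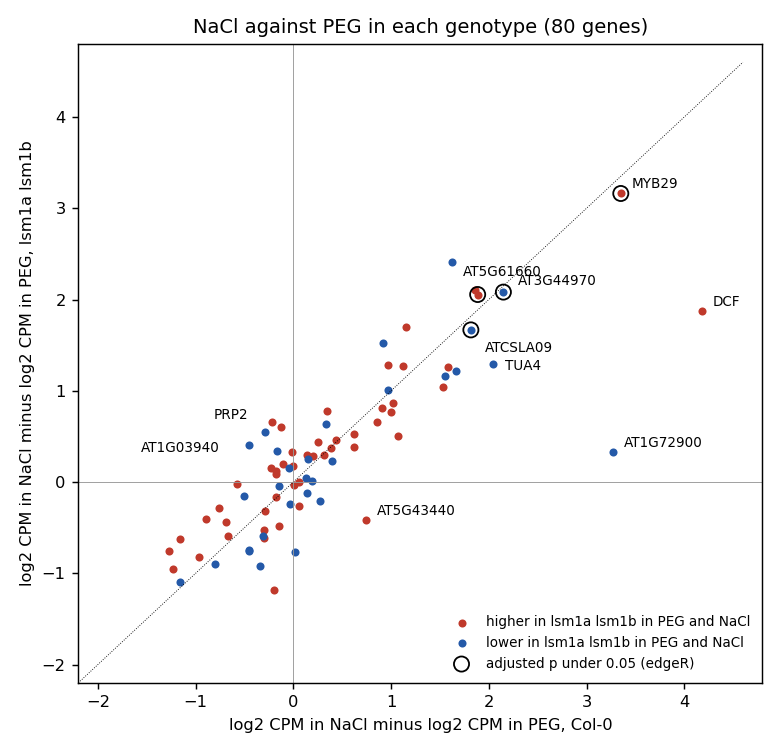
Log2 CPM in NaCl minus log2 CPM in PEG in Col-0 (x axis) and in lsm1a lsm1b (y axis) for the 80 genes, 1 point per gene, with the 4 genes past an adjusted p of 0.05 circled; on the dotted line the difference is equal in both genotypes. MYB29 lies highest at 3.35 and 3.16, and AT1G72900 and DCF lie far to the right of the line.

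The genotype ratio itself was not equal in PEG and NaCl for all of the genes. Among the higher genes 21 were farther from no difference in PEG and 29 in NaCl, and the counting intervals lay apart for 5 and 9 of these. Of the lower genes 12 were farther in PEG and 18 in NaCl, with intervals apart for 4 and 9. DCF, AT5G58570 and AT5G43440 were farther in PEG, with log2 ratios of 3.07, 2.67 and 2.35 against 1.12, 1.68 and 1.23 in NaCl. TUA4, PIP1B and PRP2 were farther in NaCl, with -2.06, 1.87 and 1.98 against -1.31, 1.13 and 1.11 in PEG.

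Lists of pathway genes other than the flavonoid and nitrate lists above held 3 of the 80 genes, and the other 12 lists examined held none. Of the circadian clock list, 2 genes were at least 2-fold higher and 1 lower of 14 under PEG, and 2 higher and 0 lower of 13 in NaCl. PRR7 and PRR3 were the higher ones in both, and PRR3 was outside the 80 genes because its cold log2 ratio was 1.1. CCA1, the lower one in PEG, had -1.37 there and 0.43 in NaCl. Of the glucosinolate list, 1 was higher and 1 lower of 17 in PEG and 2 were higher and 0 lower of 23 in NaCl. MYB28, the relative of MYB29, had 0.55 in PEG and 0.79 in NaCl, and CYP79F1, an enzyme of aliphatic glucosinolate synthesis, had 0.15 and 0.00. Of the phosphate starvation list, RNS1 alone was at least 2-fold higher, among 11 genes in PEG and 12 in NaCl, and 0 were lower. The phosphate sensor gene SPX1 had -0.23 and 0.41.

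Gene structure and position were not used by the choice. The median number of exons was 4 for the higher genes, 3 for the lower genes and 5 for all genes listed in the 3 stresses. Genes with 1 exon made up 16.0%, 34.5% and 14.5% of these sets, or 8 of 50 and 10 of 29 with an annotated structure. Median lengths were 1289, 1619 and 1512 bases. Of the lower genes 11 were on chromosome 1 and 1 on chromosome 2, where 26.2% and 15.0% of all genes lie. Within 10 genes of each other lay GRP3S and GRP9 with 4 genes between them, AT4G33740 and AT4G33666 with 8 between them, SELT (higher) and HSD2 (lower) with 2 between them, and the adjacent AT4G19500 and AT4G19510. Of the 80 genes 9 overlapped a listed protein-coding gene on the other strand by at least 100 bases.

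Promoter windows from 250 bases before to 50 bases after the RefSeq gene start were searched on both strands for 6 motifs. The evening element, AAATATCT, known for its part in clock-regulated expression, was found in 9 of 50 higher genes (18.0%), 1 of 29 lower genes (3.45%) and 6.02% of the windows of all 16777 annotated genes. The G-box, CACGTG, was in 16.0%, 20.7% and 9.14%. The ABRE core, ACGTGTC, which can overlap a G-box, was in 8%, 10.3% and 5.26%, and the DRE core, CCGAC, in 26.0%, 10.3% and 17%. The W-box, TTGACC, was in 16.0%, 6.90% and 14.2%, and the heat element, GAANNTTC, in 20%, 6.90% and 11.4%. The G-box and the heat element read the same on both strands. These shares are descriptions of small sets and were not tested.

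The evening element lay before the start, in a window free of other annotated genes, in 5 higher genes, and their upstream bases are printed because this is the motif whose share among the higher genes stood farthest from that of all genes. They lie at chr3:1225669-1225918 (plus strand) for AT3G04550, a rubisco accumulation factor-like gene, chr3:1039604-1039853 (minus strand) for AT3G04010, chr4:8839006-8839255 (plus strand) for AT4G15450, chr2:538000-538249 (plus strand) for PDF2.1 and chr2:18811126-18811375 (minus strand) for AGL20 (TAIR10.1, RefSeq, 5′ to 3′ on the gene's strand). Capitals mark the evening element, which reads AGATATTT on the other strand, and the DRE core, which reads GTCGG there.
AT3G04550: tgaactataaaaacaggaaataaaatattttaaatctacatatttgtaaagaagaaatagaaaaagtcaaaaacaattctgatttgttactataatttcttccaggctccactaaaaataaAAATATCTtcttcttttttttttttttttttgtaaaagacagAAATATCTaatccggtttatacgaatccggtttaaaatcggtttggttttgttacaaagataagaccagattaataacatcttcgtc
AT3G04010: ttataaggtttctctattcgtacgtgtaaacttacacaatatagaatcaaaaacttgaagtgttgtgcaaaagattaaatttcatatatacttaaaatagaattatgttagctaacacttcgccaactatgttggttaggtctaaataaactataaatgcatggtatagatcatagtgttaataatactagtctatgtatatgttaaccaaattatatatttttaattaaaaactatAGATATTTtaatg
AT4G15450: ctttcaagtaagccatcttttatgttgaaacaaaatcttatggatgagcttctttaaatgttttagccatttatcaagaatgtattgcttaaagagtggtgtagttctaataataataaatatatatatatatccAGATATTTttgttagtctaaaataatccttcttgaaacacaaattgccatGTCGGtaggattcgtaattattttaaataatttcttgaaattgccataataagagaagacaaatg
PDF2.1: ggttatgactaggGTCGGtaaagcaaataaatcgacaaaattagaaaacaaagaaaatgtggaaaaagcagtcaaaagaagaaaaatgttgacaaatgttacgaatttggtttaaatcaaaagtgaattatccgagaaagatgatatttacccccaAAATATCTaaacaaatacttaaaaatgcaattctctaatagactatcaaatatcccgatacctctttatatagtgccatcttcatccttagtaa
AGL20: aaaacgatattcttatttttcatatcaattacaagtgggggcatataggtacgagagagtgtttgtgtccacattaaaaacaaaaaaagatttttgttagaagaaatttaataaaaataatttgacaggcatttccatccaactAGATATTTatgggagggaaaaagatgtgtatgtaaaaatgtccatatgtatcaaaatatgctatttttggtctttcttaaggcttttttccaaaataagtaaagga
AT3G04550 holds the element at 129 and at 87 bases before the start, AT3G04010 at 13, AT4G15450 at 115, PDF2.1 at 94 and AGL20 at 106. AT3G04550 was at 352 and 402 CPM in cold, 97.0 and 224 CPM under PEG, and 181 and 394 CPM in NaCl. AT4G15450 was at 46.4 and 42.9 CPM, 9.50 and 30.1 CPM, and 19.3 and 55.1 CPM, and the log2 levels of these 2 genes had a Pearson correlation of 0.984 over the 6 libraries. In contrast AT3G04010 and PDF2.1 were higher on the plates than in cold in both genotypes, so the genes that hold the element did not share one order of levels.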

How the data were processed

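The authors deposited raw read counts of genes for each library, which were used unchanged; TAIR10, TopHat2 and DESeq2 are named in the submitters' processing notes without versions, and the counting tool and strand setting are not given in the sources used here. Loci were matched to RefSeq TAIR10.1 for names and sequences (20058 of 20297 matched; all on the same chromosome and strand).

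Counts were turned into CPM and genotype ratios with 0.5 CPM added (Python 3.11.15, pandas 2.3.3, scipy 1.17.1). NaCl was compared with PEG by edgeR 4.0.16 (limma 3.58.1, R 4.3.3), a quasi-likelihood test with genotype as a block and Benjamini-Hochberg adjustment. The test was also run on simulated counts without genotype differences, which cannot show how it behaves for genes chosen by genotype ratio. Alternatives were DESeq2 1.42.0, limma-voom, other scalings, values added, limits and filters, and each plate library left out. Copies were found with blastn 2.17.0.

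The genes and lists were chosen with earlier results of these data known. Genes were named from these groups: per direction up to 12 with the largest mean PEG and NaCl ratio, and list members. Further groups were those called in NaCl against PEG, neighbouring or overlapping genes, and 3 on each side of the limit. Not every gene in these groups was described, and AT1G76955, AT3G24420 and CRK42 are examples. Other genes named were chosen after their values were seen. Depth was 10289392 to 22639128 counts per library, and intervals cover counting error only. Nothing says whether libraries came from separate cultures, so p-values measure the spread between these libraries.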

Additional observations from a re-analysis of the deposited data

Results flagged for a closer look

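In 6 of the 80 genes the NaCl level lay on opposite sides of the PEG level in the 2 genotypes. The counting interval lay clear of no difference in each genotype. This count was not made over all genes, so it is no trait of the 80. Whether the genotypes differ was not tested, since there was 1 library per group. PIP1B had a log2 NaCl over PEG ratio of -0.13 in Col-0 and 0.61 in the libraries labelled lsm1a lsm1b, a difference of 0.74. PRP2 had -0.22 and 0.66 (difference 0.88), and AT1G17940 had -0.18 and 0.12 (difference 0.30). AT5G43440 ran the other way, with 0.74 in Col-0 and -0.42 in lsm1a lsm1b (difference -1.16). The near-identical acyltransferase genes AT1G03940 and AT1G03495 had -0.46 and -0.29 in Col-0 and 0.40 and 0.55 in lsm1a lsm1b, differences of 0.86 and 0.83.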

How the results depend on the processing

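The count of genes meeting the choice depended on its limits. With a level limit of 1 CPM 83 genes were higher, and with 20 CPM 20 were higher and 14 lower. A fold limit of 1.5 gave 233 and 214, one of 4 gave 6 and 1. A narrower cold band gave 29 and 15, and a wider one of 0.5 to 2 gave 79 and 48. Leaving out the NaCl condition, an alternative chosen after seeing the data, gave 160 and 101. TMM, DESeq2 size factors, 0.1 or 2 added to CPM, and organelle genes left out of the sums gave 43 to 55 higher and 25 to 41 lower. The median log2 ratios moved by less than the typical counting error of a single gene under every scaling and value added. That yardstick is not the error of a median over many genes. Of the 160 single-gene ratios in PEG and NaCl, 17 left their counting interval with TMM and 17 with DESeq2 size factors. With 2 CPM added 10 did, and with 0.1 CPM added 2 did. For NaCl against PEG, DESeq2 called 1780 genes higher and 1273 lower (14 and 3 of the 80), limma-voom 1039 lower (2 of the 80), the 4 plate libraries alone 2827 and 2034 (24 and 9), and no genotype block 301 and 97 (0 of the 80 higher; 6 with an unadjusted p under 0.05). Without any 1 of the plate libraries edgeR called 0 genes higher and 0 lower (2405 to 3604 with an unadjusted p under 0.05), so the counts ran from 0 to 0; with no call among all genes, these fits do not bear on the 80 genes. The NaCl against PEG test pairs libraries by genotype through its block, and the fit without that block is its unpaired form. By replicate number, no paired analysis was possible because each genotype and stress has 1 library. Depth limits the lowest genes: AT2G34655 held 4 and 5 counts in Col-0 in PEG and NaCl, and its log2 ratio in PEG ran from 2.58 with 2 CPM added to 5.25 with 0.1 CPM added.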
